A study of Canis lupus familiaris with 34 samples.

Results

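Mitral valve transcripts of 10 genes that sense or answer mechanical load were examined: the flow-induced transcription factors KLF2 and KLF4, the cation channels PIEZO1, PIEZO2 and TRPV4, the polycystins PKD1 and PKD2, the Hippo pathway effectors YAP1 and WWTR1 (also called TAZ), and the caveolar coat protein CAV1. The genes were picked by symbol, with earlier results of these dogs known, and are 10 of the 23768 annotated features of the count table. All 10 had a summed count of at least 100 over the dogs and were among the 19568 features tested.

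The valves came from 34 Cavalier King Charles Spaniels of about 10 years of age, a breed with frequent myxomatous mitral valve disease (MMVD). The group 10y-noCHF held 19 dogs (10 females and 9 males) without congestive heart failure (CHF), and the group 10y-MMVD-CHF held 15 dogs (6 females and 9 males) whose MMVD had led to CHF. By the study's methods the first group was a mixture: nearly every dog in it had MMVD in ACVIM stage B1 or B2 and a lone dog was in stage A, while the second group was in stage C and its diagnosis included a response to diuretic treatment. The comparison is therefore of later with earlier disease in privately owned dogs, the treatment went with the diagnosis, and the stage of each dog was not used here. Every library is 1 dog.

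Blood flow drags on the endothelial cells that line vessels and valves, and a valve leaflet is in addition bent and stretched with every beat. Laminar flow is known to induce KLF2 and KLF4 in endothelium through the kinases MEKK3, MEK5 and ERK5, and these factors raise genes such as NOS3 and THBD and restrain inflammatory genes. Stretch and matrix stiffness act in many cell types, including the fibroblast-like valve interstitial cells, through channels that open when the membrane is tensed and through YAP1 and WWTR1, which enter the nucleus and bind TEAD factors.

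The tissue was checked against marker genes of its cell types. Transcripts of valve interstitial cells were abundant, with COL1A1 at a mean of 3076 CPM (read counts scaled to a common library size) and DCN at 2498 CPM in 10y-noCHF, and the endothelial markers PECAM1 and CDH5 had means of 330 and 55.7 CPM. The mean log2 CPM of 11 endothelial markers ran from 4.77 to 5.598 in 10y-noCHF and from 4.98 to 5.93 in 10y-MMVD-CHF. The mean of 9 valve interstitial cell markers ran from 10.3 to 11.5 and from 10.5 to 11.5. Heart muscle was present in very unequal amounts, since the mean of 14 cardiomyocyte markers ran from -0.34 to 9.61 in 10y-noCHF and from 0.98 to 10.6 in 10y-MMVD-CHF. None of these 3 means separated the groups, and no gene of any marker list passed the test for CHF described below. The mean of 7 macrophage markers had a median of 5.95 without and 6.16 with CHF, and that of 5 adipocyte markers 1.30 and 0.36. Among 5 smooth muscle and pericyte markers, whose mean had a median of 6.61 in both groups, MYH11 of smooth muscle was at a log2 fold change of -0.67 (unadjusted p = 0.00514, FDR = 0.480) and RGS5 of pericytes at 0.58 (p = 0.00755, FDR = 0.556). Their part in the differences below, the lower CAV1 included, was not tested. In bulk tissue fewer cells of a type and less RNA per cell cannot be told apart, so every level below is that of the whole valve. Total counts ran from 46185256 to 82361245 per dog. The dogs CAV614, a male, and CAV1047, a female, both of the 10y-MMVD-CHF group, held the extreme level of all dogs in several of the 10 genes: CAV1047 the lowest for KLF2, KLF4 and PIEZO1 and the highest for YAP1, and CAV614 the lowest for PKD2 and CAV1. CAV614 had the highest red blood cell marker mean of all dogs at 5.48, and CAV1047 had the highest cardiomyocyte mean and the lowest total count.

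The features differ in kind, which limits what a level means. TRPV4, PKD1 and CAV1 were counted over RefSeq exons, and the other 7 over the whole span of an aligned human transcript, introns included, so levels were not ranked between these kinds. Per kilobase of exon, CAV1 had a mean level of 96.8 ± 32.3 CPM (SD over 34 dogs), PKD1 36.05 ± 7.07 CPM and TRPV4 0.266 ± 0.209 CPM. TRPV4 was thus far below the other 2. Reads were counted without strand and for every feature they touched, so KLF2 (chromosome 20, 46590573 to 46594118, minus strand, build canFam4) shares 43.5% of its length with LOC440910 on the other strand. PIEZO1 (chromosome 5, 65068479 to 65124248) lies wholly inside the span of PABPN1L, and the exons of PKD1 (chromosome 6, 39267945 to 39309679) are overlapped by 5 alignments of PKD1 pseudogene transcripts. TSC2, on the other strand, overlaps 755 bases (5.4%) of the PKD1 exons, and LOC100288162, LOC105371049 and MIR1225 overlap shorter or similar stretches.

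Whether the genes differed between dogs with and without CHF was tested with edgeR's quasi-likelihood test with sex as a term and the Benjamini-Hochberg false discovery rate (FDR) taken over all 19568 features. None of the 10 genes passed an FDR of 0.1, where 0.118% of all features did (23 features), and DESeq2 also called none of the 10. At an unadjusted p below 0.05 there were 2 genes, KLF4 and CAV1, by either tool, beside 6.31% of all features. Both were lower with CHF, where 3.51% of all features were lower and 2.8% higher at that threshold. Of the 10 log2 fold changes 8 were below 0 and 2 above, beside 9273 below and 10295 above among all 19568 features. The median of the 10 was -0.078 beside 0.0076 over all features. The plot of levels by dog shows how far the groups overlapped in every gene.

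**Figure D1:**
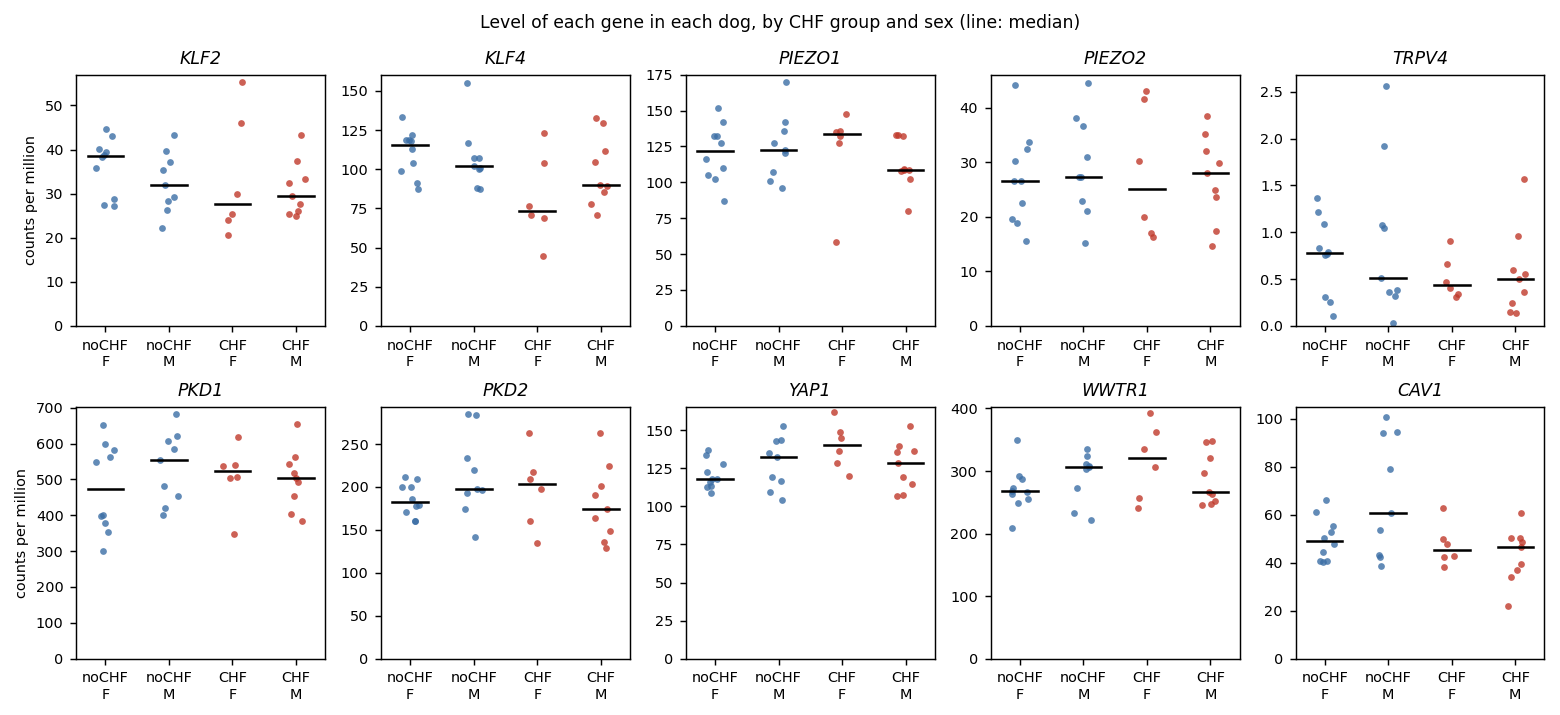
Level of each of the 10 genes (CPM, linear axes from 0) in each dog, as points for females (F) and males (M) of 10y-noCHF (blue, 10 and 9 dogs) and 10y-MMVD-CHF (red, 6 and 9 dogs), with a line at each median. The groups overlapped for all 10 genes. KLF4 in CHF females had a median of 73.4 CPM against 115 CPM in females without CHF, and CAV1 in CHF males 46.4 CPM against 60.6 CPM in males without CHF.

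Among the flow-induced transcription factors, KLF4 was the lower in CHF dogs at the unadjusted level and KLF2 was not separated from 0. KLF4, which represses inflammatory and pro-thrombotic genes in endothelium, had a lowest level of 87.3 CPM, a median of 107 CPM and a highest of 155 CPM in 10y-noCHF. In 10y-MMVD-CHF the lowest, median and highest levels were 44.4, 89.3 and 132 CPM. Of the 15 CHF dogs, 11 lay below the noCHF median and 7 below the lowest dog without CHF, so the groups overlapped in their upper part. The log2 fold change of KLF4 was -0.26 ± 0.11 (SE), with a 95% interval from -0.48 to -0.040, an unadjusted p of 0.0221 and an FDR of 0.696. Without CAV614 and CAV1047 it was -0.17 with an unadjusted p of 0.0791, so the unadjusted call did not hold with both of these 2 dogs left out. Leaving out any single dog kept the unadjusted p of KLF4 below 0.05. The highest was 0.0487 without CAV1047, where the value was -0.20.

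KLF2, the closest relative of KLF4 in the response to flow, had levels of 22.1, 35.7 and 44.7 CPM (lowest, median and highest) in 10y-noCHF and of 20.7, 29.5 and 55.3 CPM in 10y-MMVD-CHF. Of the CHF dogs 11 of 15 lay below the noCHF median, but the 2 highest levels of all were also CHF dogs. Its log2 fold change was -0.088 ± 0.12 (SE, p = 0.453, FDR = 0.954), and the 95% interval from -0.32 to 0.15 leaves room for a fall of the size seen for KLF4.

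The stretch-gated channels showed no difference that passed the test. PIEZO1, the channel through which endothelial cells sense shear, had levels of 86.9, 123 and 169.6 CPM in 10y-noCHF and of 58.7, 127 and 147 CPM in 10y-MMVD-CHF (log2 fold change -0.068, 95% interval from -0.27 to 0.13). PIEZO2, better known from touch receptors and sensory neurons, had levels of 15.1, 27.2 and 44.6 CPM against 14.6, 27.996 and 43.15 CPM (-0.037, interval from -0.37 to 0.29). The ranges of PIEZO2 nearly coincided between the groups, and for PIEZO1 2 CHF dogs, CAV1047 the lowest, lay below every dog without CHF. TRPV4, a calcium channel opened by cell swelling, warmth and shear, had between 2 and 148 counts per dog and levels of 0.0348, 0.769 and 2.56 CPM in 10y-noCHF against 0.140, 0.469 and 1.56 CPM in 10y-MMVD-CHF. With 12 of 15 CHF dogs below the noCHF median its log2 fold change was -0.62 ± 0.39 (SE, p = 0.118, FDR = 0.848). The interval from -1.41 to 0.17 was the widest of the 10, the value was -0.42 without the dog CAV743 and -0.81 without CAV1097 (unadjusted p = 0.0445), and it was -0.29 with the endothelial marker mean as a covariate.

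The polycystins, a receptor-like protein and its channel partner in primary cilia, did not pass the test either. PKD1 had levels of 301, 548 and 682 CPM in 10y-noCHF and of 348, 506 and 654 CPM in 10y-MMVD-CHF. Although 12 of 15 CHF dogs lay below the noCHF median, the log2 fold change was -0.0057, with an interval from -0.21 to 0.20. PKD2 had levels of 142, 197 and 285 CPM against 129, 191 and 263 CPM, a log2 fold change of -0.090 with an interval from -0.29 to 0.12.

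YAP1 and WWTR1 were the 2 genes with a positive sign. YAP1 had levels of 104, 119.6 and 153 CPM in 10y-noCHF and of 107, 136 and 162 CPM in 10y-MMVD-CHF, with 11 of 15 CHF dogs above the noCHF median (log2 fold change 0.087 ± 0.060 SE, p = 0.153, FDR = 0.864). WWTR1 had levels of 209.5, 273 and 349.9 CPM against 240.1, 297 and 393 CPM (0.090 ± 0.076 SE, p = 0.248, FDR = 0.908). YAP1 was also the least variable of the 10, so its 95% interval was the narrowest, from -0.034 to 0.21, and that of WWTR1 ran from -0.065 to 0.25.

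CAV1, the main structural protein of the caveolae that flatten when the membrane is stretched, had the smallest p of the set. Its levels were 38.5, 52.9 and 101 CPM in 10y-noCHF and 21.95, 46.4 and 62.6 CPM in 10y-MMVD-CHF. Of the CHF dogs 13 of 15 lay below the noCHF median and 4 below the lowest dog without CHF. The log2 fold change was -0.38 ± 0.14 (SE), with an interval from -0.66 to -0.10, an unadjusted p of 0.00924 and an FDR of 0.592. The longer XenoRefSeq feature of the gene, with more reads, gave -0.42 ± 0.13 (unadjusted p = 0.00227, FDR = 0.398) from a mean of 299 ± 93.8 CPM (SD) in 10y-noCHF and 226 ± 48.8 CPM in 10y-MMVD-CHF. Leaving out any single dog kept the unadjusted p of CAV1 below 0.05, the highest being 0.0199 without CAV901, and the value was -0.39 without CAV614 and CAV1047.

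**Figure D2:**
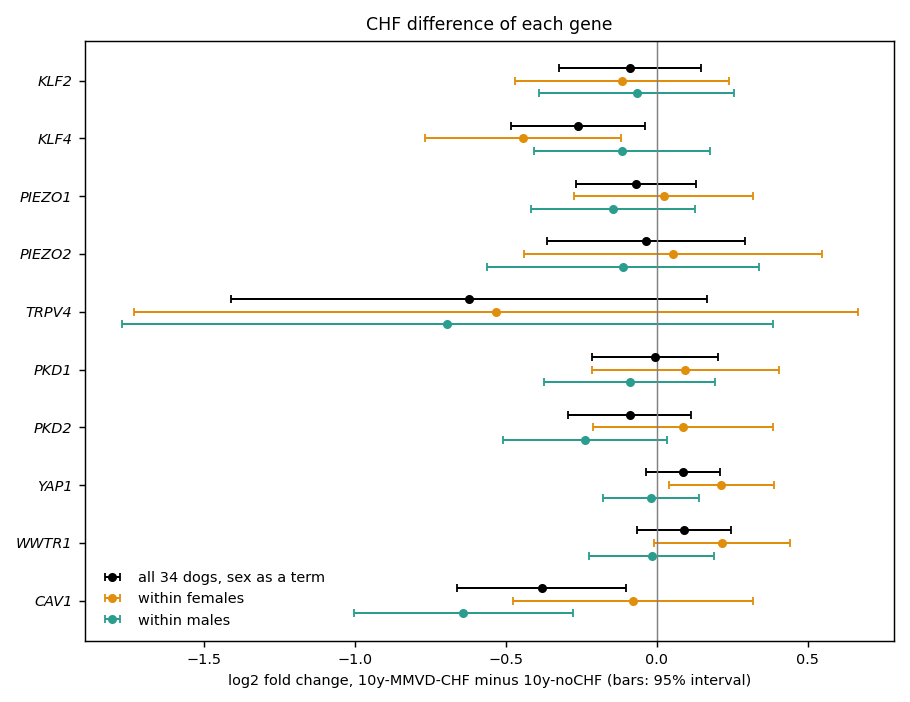
Log2 fold change of each gene, 10y-MMVD-CHF minus 10y-noCHF, with 95% intervals, for all 34 dogs with sex as a term (black), within females (orange) and within males (green). The values within each sex come from a fit to all 34 dogs with a separate CHF term for each sex. For all dogs together the intervals of KLF4 (-0.48 to -0.040) and CAV1 (-0.66 to -0.10) lie below 0 and the other 8 include 0; none of the 10 genes passed an FDR of 0.1.

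Sex was the other factor of the design. None of the 10 genes differed between males and females at an FDR of 0.1 or at an unadjusted p below 0.05 in edgeR or DESeq2, where 28 features (0.143%) passed the FDR threshold in edgeR. The smallest unadjusted p was that of CAV1 at 0.180, with a log2 difference of male minus female of 0.19 and an interval from -0.091 to 0.47. KLF2 had -0.14 with an interval from -0.37 to 0.096.

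Whether the CHF difference itself differed between the sexes was tested with an interaction term, for which edgeR called 0 of all features (0%) and DESeq2 called 3, none of them among the 10 genes. At an unadjusted p below 0.05, which 6.02% of all features reached, edgeR held 1 of the 10 genes, CAV1, and DESeq2 held 2, CAV1 and YAP1. CAV1 in males ranged from 38.5 to 101 CPM without CHF (median 60.6) and from 21.95 to 60.7 CPM with CHF (median 46.4), while in females it ranged from 40.4 to 66.1 CPM (median 49.1) and from 38.4 to 62.6 CPM (median 45.2). The 4 highest levels were thus those of males without CHF, and the ranges of the 4 groups overlapped. In fits within each sex, added after the data were seen, the log2 fold change was -0.64 in males (interval from -1.01 to -0.28) and -0.079 in females (interval from -0.48 to 0.32), and their difference was -0.56 with an unadjusted p of 0.0406 and an FDR of 0.824. On the longer feature of CAV1 that difference was -0.31 (p = 0.226), and without CAV614 and CAV1047 it was -0.38 (p = 0.136).

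For YAP1 it was the females that stood away from 0. All 6 CHF females lay above the noCHF median of 119.6 CPM, with a log2 fold change of 0.21 in females (interval from 0.042 to 0.39) and of -0.020 in males (interval from -0.18 to 0.14). The difference was -0.23 (p = 0.0505, FDR = 0.830). KLF4 had a log2 fold change of -0.44 in females (interval from -0.77 to -0.12) and of -0.11 in males (interval from -0.41 to 0.18), a difference of 0.33 (p = 0.132, FDR = 0.869). No difference between the sexes therefore held after adjustment for any of these 3 genes.

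The genes around the 10 were followed in 11 lists, which together held 122 genes, all of them tested. None of the 122 passed an FDR of 0.1 in edgeR, and DESeq2 called 2, of which ASS1 had an FDR of 0.0886. At an unadjusted p below 0.05 there were 18 (14.8%), 12 higher and 6 lower with CHF, beside 6.31% of all features. These lists were assembled with earlier results of the same dogs known, and ASS1 was already among the differential genes of the study, so the share is a description and not independent evidence.

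Upstream of KLF2 and KLF4 little moved. Of 8 junctional flow sensors none reached an unadjusted p below 0.05, which 6.31% of all features reached. The 2 with the smallest p were GNAQ at 0.22 (p = 0.0755) and the VEGF receptor KDR at -0.32 (p = 0.138) on the log2 scale. Of 11 genes of the MEKK3, MEK5 and ERK5 cascade 1 reached it, MAP3K3, which encodes MEKK3 itself, at 87.6 ± 10.3 CPM (SD) without and 95.1 ± 9.61 CPM with CHF (log2 fold change 0.12, p = 0.0404). Among 11 other Kruppel-like factors 3 reached it, beside the same 6.31% of all features. KLF6 had 174 ± 21.1 CPM without and 149.6 ± 23.7 CPM with CHF (-0.23, p = 0.00146, FDR = 0.369), while KLF9, a glucocorticoid-responsive factor, was at 0.27 (p = 0.0157) and KLF12 at 0.18 (p = 0.0164).

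The known targets of flow went in both directions. Of 7 flow-induced endothelial genes 2 were higher at an unadjusted p below 0.05, beside 2.8% of all features. ASS1, which recycles citrulline to the arginine used by nitric oxide synthase, had 3.65 ± 1.87 CPM (SD) without and 7.60 ± 3.83 CPM with CHF (log2 fold change 1.07, p = 0.00126, FDR = 0.368 in edgeR). TEK, the angiopoietin receptor, was at 0.28 (p = 0.0442). Of 7 flow-repressed genes 2 were lower and 1 higher, beside 3.51% and 2.8% of all features. Among them the vasoconstrictor endothelin EDN1 was at -0.40 (p = 0.0180) and the adhesion molecule VCAM1 was at 0.40 (p = 0.0462). The median log2 fold changes of these lists, 0.039 and -0.058, were close to that of all features.

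Around the channels and polycystins, 1 of 16 other mechanosensitive channels reached an unadjusted p below 0.05, TMEM63B at -0.16 (p = 0.0435), beside 6.31% of all features. A negative sign was held by 12 of the 16, with a median of -0.090, beside 9273 of all 19568 features. Of 12 genes of the primary cilium 1 reached an unadjusted p below 0.05, the transport motor subunit KIF3B at 0.15 (p = 0.0276).

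In the Hippo pathway, 4 of 17 genes of the kinase cascade were higher at an unadjusted p below 0.05, beside 2.8% of all features, and none lower: the kinase STK4 (MST1) at 0.17 (p = 0.00987), its scaffold SAV1 at 0.12 (p = 0.0131), TAOK1 at 0.18 (p = 0.0235) and the YAP1-binding AMOTL1 at 0.17 (p = 0.0295). Of 4 TEAD factors 1 was higher, TEAD1, at 116 ± 22.01 CPM (SD) without and 136 ± 20.7 CPM with CHF (0.23, p = 0.00932, FDR = 0.592). Of 20 YAP1 and WWTR1 targets 2 were lower, beside 3.51% of all features, and none higher. These were NT5E (CD73) at -0.37 (p = 0.01775) and ASAP1 at -0.19 (p = 0.0193). A negative sign was held by 15 of the 20 (median -0.078), beside 9273 of all 19568 features. Of 9 other caveolar genes none reached the threshold, and the 2 with the smallest p were CAVIN1 at -0.11 (p = 0.117) and CAV2 at -0.19 (p = 0.118).

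**Figure D3:**
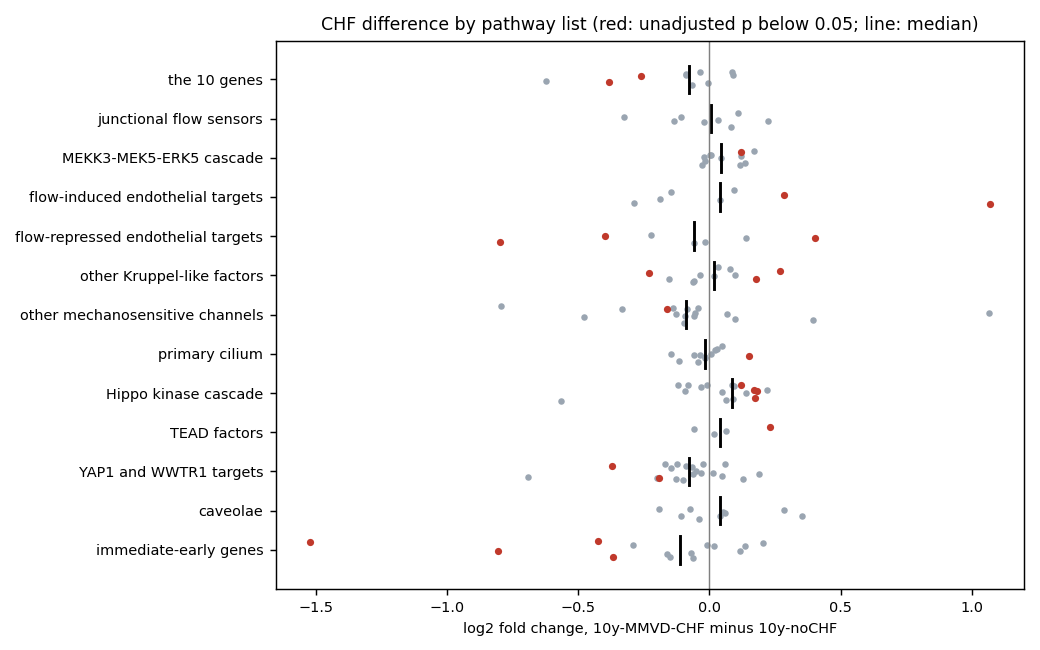
Log2 fold change, 10y-MMVD-CHF minus 10y-noCHF, of every gene of the 10-gene set, the 11 pathway lists and the immediate-early genes (points), red where the unadjusted p was below 0.05, with a line at each list's median. The list medians lie between -0.11 and 0.085, and FOSB at -1.52 is the only gene shown that passed an FDR of 0.1.

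Immediate-early genes, which KLF2 and KLF4 resemble in their quick induction by many stimuli, including tissue handling, were set beside them. Of 14 such genes 4 were lower with CHF at an unadjusted p below 0.05, beside 3.51% of all features, and none higher, and FOSB passed the FDR threshold, with 4.34 ± 2.71 CPM (SD) without and 1.49 ± 0.626 CPM with CHF (log2 fold change -1.52, FDR = 0.0289). ATF3 was at -0.81 (FDR = 0.124), DUSP1 at -0.37 and NR4A1 at -0.42. FOSB and ATF3 were already among the differential genes of the study and are no independent evidence. The mean of the 14 genes ran from 4.79 to 6.38 in 10y-noCHF and from 4.74 to 5.81 in 10y-MMVD-CHF, and its part in the KLF4 difference was not tested. Across the dogs KLF4 had a Pearson r of 0.36 with that mean (rho 0.36, permutation p = 0.0384, adjusted over 40 relations 0.140).

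How the 10 genes varied from dog to dog was described after the means of each group and sex had been removed. YAP1 and WWTR1 were the steadiest, with SDs of 0.16 and 0.22 on the log2 scale, with 11.99% and 28.1% of all features below them. The SDs of KLF2, KLF4, PIEZO1, PKD1, PKD2 and CAV1 lay between 0.29 and 0.40, around the median of 0.33 over all features. PIEZO2 had 0.50 and TRPV4 1.18, the latter with few counts.

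Of the 45 pairs of genes 11 were correlated over the 34 dogs at an adjusted permutation p below 0.1, all positively, and all but PIEZO1 with WWTR1 were also called by rank correlation. KLF2 and KLF4 had a Pearson r of 0.68 and a Spearman rho of 0.63 (permutation p = 2.5e-04, adjusted 0.00281). The relation was 0.82 within the CHF dogs and 0.43 within the noCHF dogs, and 0.68 when the dogs with the most extreme KLF4 levels, CAV1047 and CAV488, were left out. KLF4 with PIEZO1 had an r of 0.41 (rho 0.21) with an adjusted permutation p of 0.184.

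Another 9 of the 11 pairs joined PIEZO1, PIEZO2, PKD1, PKD2 and WWTR1, out of the 10 pairs these 5 genes can form, a block that was noticed in the values and not tested as such. Many other features were related to these genes as closely as the weaker pairs were. An absolute r of at least 0.451 with PIEZO1 was held by 29.5% of all features, and of at least 0.416 with PKD1 by 31.4%. The shares were 23.7% at 0.388 for PKD2, 19.4% at 0.402 for PIEZO2 and 17.5% at 0.447 for WWTR1. PIEZO1 had an r of 0.67 with PKD1 (rho 0.64, adjusted permutation p = 0.0015) and of 0.65 with PKD2 (rho 0.66, adjusted p = 9e-04). The polycystins had an r of 0.63 with each other (rho 0.65, adjusted p = 9e-04), and WWTR1 had 0.62 with PKD2 (rho 0.58) and 0.58 with PIEZO2 (rho 0.56). PIEZO2 with PKD1 was the pair of this block that missed the threshold (r = 0.38, rho 0.37, adjusted permutation p = 0.114). In all 9 pairs the sign was the same within both CHF groups. Leaving out the 2 dogs farthest from the median of the later gene of each pair gave an r from 0.42 to 0.69. Later refers to the order PIEZO1, PIEZO2, PKD1, PKD2, WWTR1. CAV1047, the lowest dog for PIEZO1, was thereby left out only for PIEZO1 with PKD1. The remaining pair was YAP1 with CAV1, with an r of 0.53 and a rho of 0.51 (adjusted permutation p = 0.0300), and 0.47 without CAV614 and CAV901. YAP1 and WWTR1, which share their TEAD partners, had an r of 0.30 that did not pass (rho 0.28, adjusted p = 0.260).

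**Figure D4:**
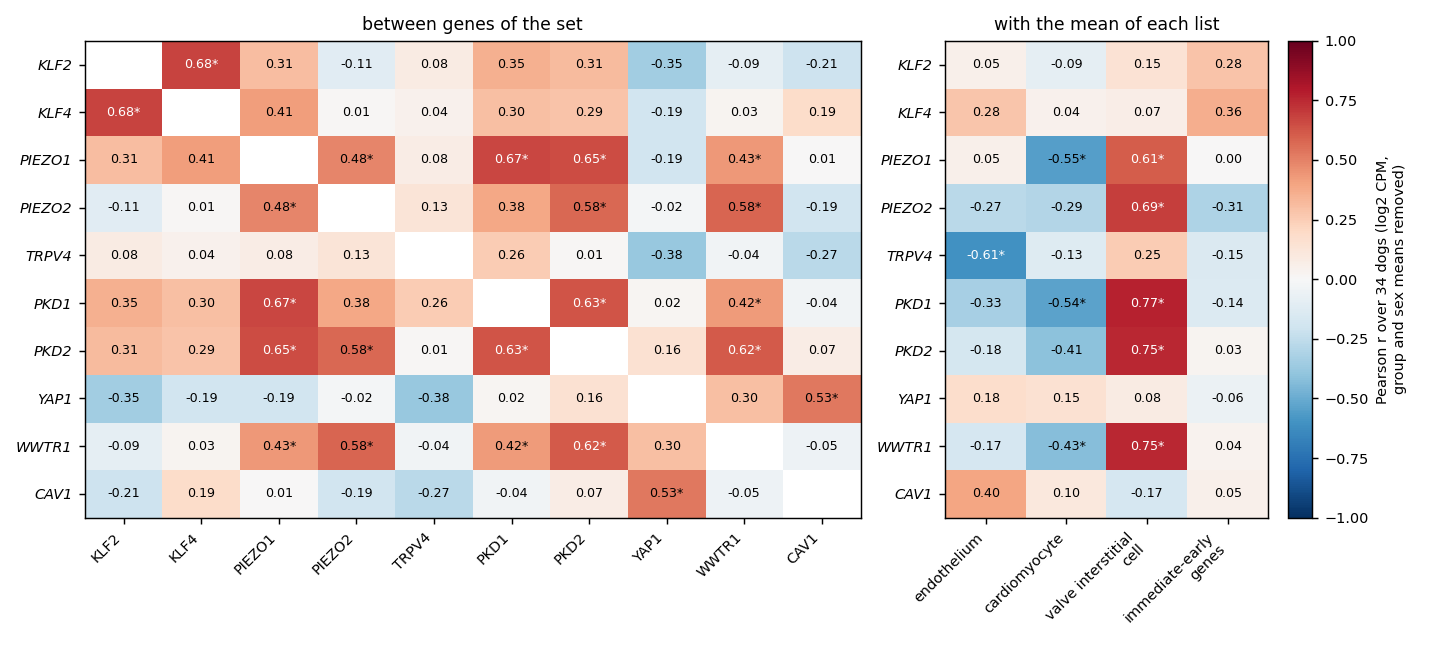
Pearson r over the 34 dogs, on log2 CPM with group and sex means removed, between the 10 genes (left) and between each gene and the mean of a marker list (right), with a star where the adjusted permutation p was below 0.1. Starred pairs join KLF2 with KLF4 (0.68), YAP1 with CAV1 (0.53) and members of the block PIEZO1, PIEZO2, PKD1, PKD2 and WWTR1, and the same 5 genes carry the starred positive values with the valve interstitial cell mean.

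The same 5 genes rose and fell with the markers of valve interstitial cells. Of 40 relations between the 10 genes and 4 marker means 9 passed an adjusted permutation p of 0.1, and 5 of these were with the valve interstitial cell mean, all positive. PKD1 had an r of 0.77 (rho 0.74, adjusted p = 1e-04), PKD2 of 0.75 (rho 0.80), WWTR1 of 0.75 (rho 0.71), PIEZO2 of 0.69 (rho 0.72) and PIEZO1 of 0.61 (rho 0.57, adjusted p = 0.00453). The permutation p of PKD1, PKD2, WWTR1 and PIEZO2 was 1e-05, the smallest that 100000 resamples can give. Many features moved with this mean, since 2.17% of all features had a larger absolute r than PKD1 and 13.8% a larger one than PIEZO1. Taking the cardiomyocyte mean out of both sides, an alternative chosen after the data were seen, left 0.66, 0.69, 0.69, 0.69 and 0.40 in the same order. With the dogs of the most extreme marker means, CAV748 and CAV1047, left out instead, the r of the 5 genes ran from 0.67 to 0.75.

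With the cardiomyocyte mean 3 genes passed, all negatively. PIEZO1 had an r of -0.55 (rho -0.56, adjusted permutation p = 0.00823), PKD1 of -0.54 (rho -0.62, adjusted p = 0.0091) and WWTR1 of -0.43 (rho -0.49, adjusted p = 0.0803). Without CAV749 and CAV1196 these were -0.58, -0.60 and -0.54. Of all features 18.5% had a larger absolute r with this mean than PIEZO1 and 32.1% a larger one than WWTR1. After the cardiomyocyte mean was removed, again an alternative chosen after the data were seen, 12 of the 45 pairs of genes passed, with PIEZO1 and PKD1 at 0.53 and KLF2 and KLF4 at 0.69. Every pair of the block noticed above then had a lower r. That of WWTR1 fell from 0.43 to 0.26 with PIEZO1 and from 0.42 to 0.25 with PKD1. Outside the block the r rose from 0.41 to 0.53 for KLF4 with PIEZO1 and from 0.30 to 0.41 for YAP1 with WWTR1.

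KLF2, KLF4 and CAV1 had no relation to the endothelial marker mean that passed. Their Pearson r was 0.050 (rho 0.16), 0.28 (rho 0.35, adjusted permutation p = 0.209) and 0.40 (rho 0.34, adjusted permutation p = 0.150). TRPV4 did pass, but with a negative sign: its r was -0.61 (rho -0.59, adjusted permutation p = 0.00453), -0.72 within the noCHF dogs, -0.36 within the CHF dogs, and -0.61 without CAV648 and CAV494. Of all features 0.608% had a larger absolute r with the endothelial mean. TRPV4 rested on a median of 34.5 counts per dog, and the cause of this negative relation was not tested.

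**Figure D5:**
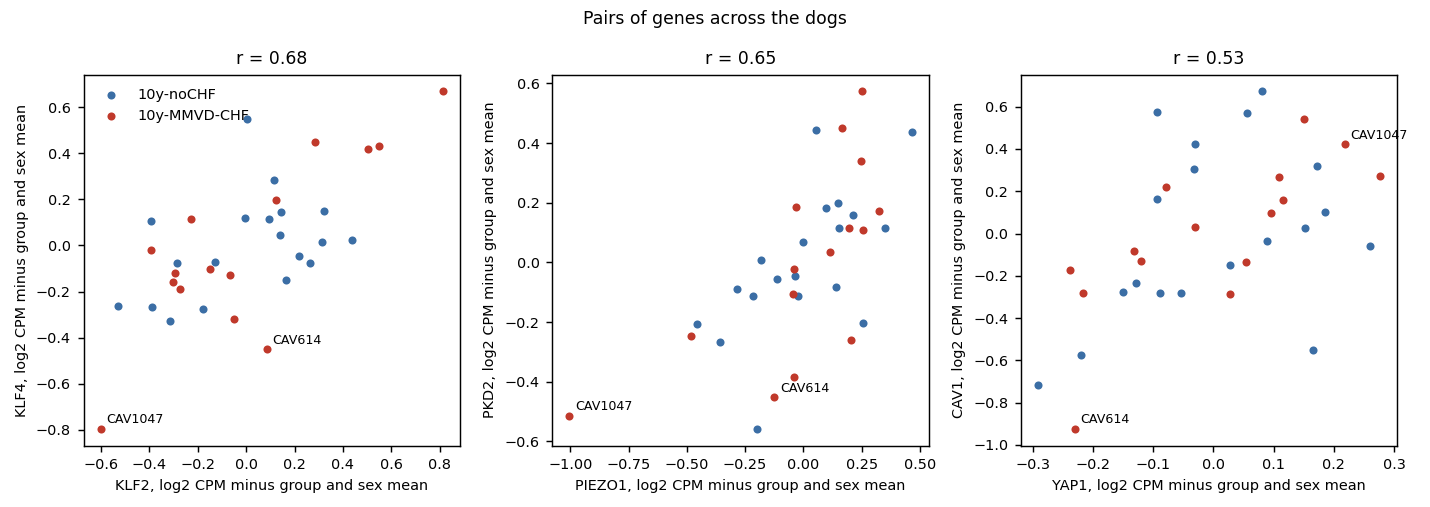
Each dog's log2 CPM minus its group and sex mean for 3 pairs of genes: KLF2 with KLF4 (r = 0.68), PIEZO1 with PKD2 (r = 0.65) and YAP1 with CAV1 (r = 0.53), for 10y-noCHF (blue) and 10y-MMVD-CHF (red). CAV1047 is the lowest dog for KLF2, KLF4 and PIEZO1, and CAV614 the lowest for CAV1.

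The features most like each gene over the 34 dogs were then listed by Pearson r, among features with a mean of at least 1 CPM and with group and sex means removed. For KLF2 they were LOC440910 (0.995), which overlaps it and shares its reads, KLF4 (0.68) and FIBIN (0.68). For KLF4 they were CEP72 (0.72), the secreted glycoprotein STC1 (0.72) and the potassium channel KCNN3 (0.68). PIEZO1 was nearest to the semaphorin receptor PLXND1 (0.88), itself a flow sensor of endothelial junctions, to ARRB1 (0.87) and to the overlapping PABPN1L (0.85). With the endothelial marker mean PIEZO1 had an r of 0.048 (rho 0.046). PIEZO2 was nearest to CCDC88A, the collagen COL12A1 and FMN1 (each 0.75).

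TRPV4 was nearest to SMPDL3A (0.69), CC2D1B (0.66) and NHP2 (0.65). The 3 nearest to PKD1 all overlap it on the genome, namely PKD1P1 (0.93), PKD1P6-NPIPP1 (0.92) and LOC100288162 (0.92). PKD2 was nearest to the Golgi protein GOLIM4 (0.85), CRISPLD1 (0.82) and GXYLT2 (0.81). YAP1 was nearest to the calcium release channel ITPR1 (0.77), the phosphatase PTPN21 (0.74) and PDK3 (0.73). WWTR1 was nearest to the matrix glycoprotein THBS1 (0.88), PRRC1 (0.83) and MEX3B (0.80). CAV1 was nearest to its partner CAV2 (0.88), which lies 15623 bases before it on the same strand of chromosome 14, and then to ALS2CL (0.72).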

How the data were processed

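Polyadenylated RNA of mitral valves from 34 dogs was sequenced in pairs. Per the methods and the file header, the authors mapped reads with STAR to canFam4 and counted them with featureCounts 2.0.3, without strand and with every overlapping feature counted, on RefSeq genes plus aligned human XenoRefSeq transcripts. The deposited values are raw counts of reads, the reads of a pair counted separately. A count column that matched no labelled dog (1 column) was not used. The RefSeq feature was taken where a gene had both kinds.

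A feature entered the test when its counts over the dogs added up to 100 or more. The model was fitted in R 4.3.3 by the quasi-likelihood method of edgeR 4.0.16, with TMM scaling and a term for sex, and was first tested on simulated data. Alternatives were DESeq2 1.42.0, limma 3.58.1 voom, other normalizations, filters and covariates, and leaving out dogs. The standard error is the log2 fold change divided by the root of F, and intervals are 95%. Levels are TMM-scaled CPM. Correlations used log2 CPM (prior count 2) and 100000 permutations within group and sex (numpy 2.4.6). All 10 members are described. Of each list, genes past FDR 0.1 were named, then those at an unadjusted p below 0.05, up to 4, or else the 2 with the smallest p. The members and lists were chosen with earlier results of these data known. No sequence or genome was used here, and some genes that the naming rule selects are not reported here.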

Additional observations from a re-analysis of the deposited data

Results flagged for a closer look

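Each gene was searched for a dog that stood away from the rest within its group and sex, 40 searches in all, by the gap to the next dog relative to the range. Chance passes the limit used in about 1 of 20 searches, and 2 of the 40 passed it. Both concerned CAV1047 among the 6 females with CHF. For PIEZO1 its level of 58.7 CPM was followed by 127 CPM in the next dog, and the gap was 0.841 of the range of the 6 dogs on the log2 scale. For PKD1 its level of 348 CPM was followed by 504.5 CPM, a gap of 0.646 of the range. CAV1047 also had the highest cardiomyocyte marker mean (10.6) and the lowest total count (46185256) of the 34 dogs, and their part in these levels was not tested.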

How the results depend on the processing

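No alternative brought any of the 10 genes past the FDR threshold for CHF, sex or their interaction, leaving out each of the 34 dogs for CHF included. The sign of 3 small CHF differences turned. PIEZO1 was at 0.0038 without CAV614 and CAV1047. PIEZO2 was at 0.027 with limma voom, 0.0031 with the cardiomyocyte covariate and 0.050 without the 2 dogs, and from -0.11 to 0.018 with single dogs left out. PKD1 was at 0.0021 without the sex term, 0.0012 with limma voom, 0.015 and 0.0020 with the cardiomyocyte and endothelial covariates and 0.042 without the 2 dogs, and from -0.037 to 0.030 with single dogs left out. The causes were not tested. The other 7 genes kept their sign. With DESeq2, 2 genes of the pathway lists were called in place of none, ASS1 among them, and DESeq2 called 64 features in place of 23. The 9 relations to marker means became 8 to 13 and the 11 pairs 9 to 12 under the alternatives. TRPV4 had as few as 2 counts and an SD of 1.18 on the log2 scale, and its interval was wider than the differences seen in the other genes. No paired analysis was possible because the dogs carry no shared replicate numbers.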

Other observations

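After the values above had been seen, the genes were also correlated with the lists of their targets and partners over the 34 dogs (log2 CPM, group and sex means removed, permutation within group and sex, adjusted over all 157 relations). At an adjusted permutation p below 0.1 there were 51, 40 positive and 11 negative. KLF4 was positively related to 4 of 7 flow-induced endothelial genes: to the anticoagulant receptor THBD with an r of 0.67 (rho 0.53, adjusted p = 0.00962), to the nitric oxide synthase NOS3 with 0.57 (rho 0.47, adjusted p = 0.0206), to HMOX1 with 0.47 (rho 0.47, adjusted p = 0.0206) and to TEK with 0.48 (rho 0.40, adjusted p = 0.0554), the last not by rank (adjusted p of rho 0.101). Without CAV1047 and CAV488, the dogs farthest from the median of KLF4, these were 0.48, 0.32, 0.40 and 0.20. Of all features 0.0358% had a higher r with KLF4 than THBD and 1.22% a higher r than HMOX1. KLF4 was also positively related to 2 of 7 flow-repressed genes, among them ICAM1 (r = 0.49, rho 0.31), neither by rank. In all, KLF4 passed with 6 of 14 genes (42.9%), where 8.22% of all features had an absolute r at least as large as the weakest of the 6. KLF2 passed with ANGPT2 of the flow-repressed genes (r = -0.39, rho -0.37, adjusted p = 0.0981, not by rank) and with none of the 7 flow-induced genes, with a median r of 0.24 beside 0.47 for KLF4, and whether the factors differ in this was not tested.

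WWTR1 was related to 9 of 20 YAP1 and WWTR1 targets, 7 positively, among them TGFB2 (r = 0.70, rho 0.66), MYOF (0.70, rho 0.68), CCN1 (0.55, rho 0.51) and CCN2 (0.49, rho 0.50), and negatively to F3 (-0.56, rho -0.54) and IGFBP3 (-0.48, rho -0.49). YAP1 was related to 3 of the 20, ARHGEF17 (0.70, rho 0.69), AJUBA (0.51, rho 0.51) and, negatively, FOXF2 (-0.41, rho -0.26). FOXF2 did not pass by rank (adjusted p of rho 0.39) and had means of only 0.117 CPM without and 0.0853 CPM with CHF. YAP1 was also related to TEAD1 (0.67, rho 0.64) and TEAD2 (0.40, rho 0.39) of the 4 TEAD factors. WWTR1 passed with no TEAD factor by Pearson r, but with TEAD1 by rank (r = 0.38, adjusted p = 0.116; rho 0.42, adjusted p = 0.0939). Of all features 17.5% had an absolute r with WWTR1 at least as large as the weakest of its 9 relations, and 14.2% with YAP1 as large as the weakest of its 5. With the cardiomyocyte mean removed the r of WWTR1 was 0.62 with TGFB2 and 0.61 with MYOF, and that of YAP1 with TEAD1 was 0.67. Without the dogs most extreme in WWTR1 (CAV1519 and CAV748) or YAP1 (CAV1047 and CAV743) they were 0.62, 0.67 and 0.63. Removing the cardiomyocyte mean left WWTR1 at 0.45 with CCN1, 0.44 with CRIM1, 0.30 with ASAP1, -0.45 with F3 and -0.41 with IGFBP3. The valve interstitial cell mean, with which WWTR1 had an r of 0.75, was not removed from these values. Of all features 0.128% had a higher r with YAP1 than TEAD1, and 0.378% a higher r with WWTR1 than TGFB2. CAV1 was related to 3 of 9 caveolar genes, to CAV2 (0.88, rho 0.88) and PACSIN2 (0.45, rho 0.42) and negatively to CAVIN3 (-0.45, rho -0.31), the last not by rank (adjusted p of rho 0.255). PKD2 was related to 4 of 12 genes of the primary cilium, TULP3 the closest (0.64, rho 0.58), and PKD1 to 3 of the 12. By rank as well, 2 of the 4 and 2 of the 3 passed. As large an absolute r as the weakest of these relations by Pearson r was held by 23.7% of all features with PKD2, by 31.4% with PKD1 and by 3.71% with CAV1. PIEZO1, PIEZO2 and TRPV4 were related to 7, 8 and 5 of the 16 other mechanosensitive channels, 1, 2 and 3 of them negatively, beside 29.5%, 19.4% and 16.3% of all features in the same sense. Of these relations 3, 3 and 5 also passed by rank. Without CAV1047 and CAV373 the absolute r of PIEZO1 with each of its 7 channels was smaller, falling from 0.61 to 0.37 with P2RX4 and from 0.51 to 0.16 with KCNJ2.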
